A study of Mus musculus with 12 samples.

Results

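The long-chain acyl-CoA synthetases Acsl1, Acsl4 and Acsl5 were measured in mouse liver by 3 spots, 1 for each gene, on a focused cDNA array of 330 genes and 354 gene spots. They were chosen by gene symbol, and all 3 symbols were current mouse names. The samples were livers of 12 male ApoEshl mice, which carry a spontaneous defect of apolipoprotein E. A high-fat diet was fed to 6 of them (HFD group) and the same diet containing 5% fucoidan to the other 6 (fucoidan group), both for 12 weeks. Fucoidan is a seaweed polysaccharide that carries sulphate groups. The labels give the mice an age of 7 to 8 weeks. This is less than the 12 weeks of diet, so it cannot be their age when the livers were taken. The Apoe defect is common to both groups, so every difference below is between 2 diets in hyperlipidaemic mice, and the normal diet and lower dose of the protocol were not analysed here. Each mouse had its own 1-colour array. The HFD arrays occupied blocks 1 to 12 of the slide and the fucoidan arrays blocks 13 to 24, so that slide position and diet cannot be told apart.

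Acyl-CoA synthetases join a free long-chain fatty acid to coenzyme A at the cost of ATP. The acyl-CoA they make is the form in which the cell burns fatty acids, stores them as triglyceride or builds them into phospholipid. ACSL1 is a major isoform of liver and fat and, in rodent liver, a known target of the nuclear receptor PPAR-alpha. ACSL5 lies on mitochondria and the endoplasmic reticulum of liver and intestine, and ACSL4 prefers polyunsaturated fatty acids such as arachidonic acid. The comparison asks whether adding fucoidan to the high-fat diet changes the level of each of these enzymes' mRNA in the liver.

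In RefSeq's GRCm38.p6 annotation Acsl1 lies on chromosome 8 (46471037 to 46536051, plus strand), Acsl5 on chromosome 19 (55251861 to 55296628, plus strand) and Acsl4 on chromosome X (142317993 to 142390802, minus strand). RefSeq's promoter table lists 2 starts for Acsl1, 19929 bases apart, and 1 each for the others. The files used here do not place the cDNA probes within the transcripts, so the Acsl1 spot cannot tell RNA of its 2 starts apart. The 250 bases before each listed start are shown so that the proximal promoters of the 3 isoforms, and the alternative promoters of Acsl1, can be compared. The windows of Acsl4, Acsl5 and the second Acsl1 start lie inside the annotated gene spans above, and that of the first Acsl1 start lies before its gene. Capitals mark GC boxes (GGGCGG on either strand, with 2 overlapping on the reverse strand of the Acsl4 sequence). They cover chr8:46470787-46471036 and chr8:46490716-46490965 on the plus strand for the 2 Acsl1 starts, chr19:55253119-55253368 on the plus strand for Acsl5 and chrX:142390536-142390785 on the minus strand for Acsl4.
Acsl1 start 1: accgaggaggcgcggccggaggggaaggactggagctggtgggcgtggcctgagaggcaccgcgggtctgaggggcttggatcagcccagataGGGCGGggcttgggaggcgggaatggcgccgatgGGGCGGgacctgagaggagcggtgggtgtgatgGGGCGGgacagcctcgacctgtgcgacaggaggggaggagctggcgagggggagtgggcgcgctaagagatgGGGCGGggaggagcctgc
Acsl1 start 2: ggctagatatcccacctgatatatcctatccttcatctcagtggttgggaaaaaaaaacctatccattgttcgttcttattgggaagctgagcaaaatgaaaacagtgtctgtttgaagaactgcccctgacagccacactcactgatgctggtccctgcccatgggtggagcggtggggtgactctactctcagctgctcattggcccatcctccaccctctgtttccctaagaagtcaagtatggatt
Acsl4: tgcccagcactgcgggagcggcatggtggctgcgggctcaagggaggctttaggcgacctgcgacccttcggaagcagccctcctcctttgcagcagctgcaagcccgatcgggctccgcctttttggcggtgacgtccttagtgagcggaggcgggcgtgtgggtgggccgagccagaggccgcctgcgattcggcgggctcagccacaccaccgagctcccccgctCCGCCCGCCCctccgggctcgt
Acsl5: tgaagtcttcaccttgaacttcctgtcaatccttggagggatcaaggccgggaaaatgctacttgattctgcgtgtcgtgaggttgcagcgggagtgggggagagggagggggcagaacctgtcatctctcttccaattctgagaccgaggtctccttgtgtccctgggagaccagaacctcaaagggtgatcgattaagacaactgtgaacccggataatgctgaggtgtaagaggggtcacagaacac

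The first Acsl1 start and the Acsl4 start were GC-rich, at 72.0% and 70.8% G or C, with 4 and 2 GC boxes. The second Acsl1 start (48.4%) and the Acsl5 start (52.8%) held none and lay near the median of 52.4% over 32851 promoter windows of the same length. A GC box, the motif of Sp1-type factors, occurred in 32.7% of those windows. The nuclear receptor half-site AGGTCA (in 14.02% of windows), its direct repeat AGGTCANAGGTCA (0.0335%, which contains the half-site), the E-box CACGTG (6.02%) and the TATA box TATAAA (12.4%) were searched on both strands and were in none of the 4 sequences. These counts describe letters in these windows and nothing beyond them.

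All 3 isoforms were detected in every liver. A spot counted as above the detection limit when its foreground lay more than 2 SD over the mean of that array's 41 control and empty spots, and each isoform spot did so on 12 of 12 arrays. In the HFD group the Acsl1 foreground was 18.0 to 28.6 times the limit of its array, that of Acsl5 16.5 to 26.8 times and that of Acsl4 2.16 to 4.08 times. In the fucoidan group the multiples were 27.95 to 54.8 for Acsl1, 17.1 to 36.5 for Acsl5 and 2.74 to 4.75 for Acsl4. Acsl4 was thus the dim spot of the 3 in both diets, while still above its limit everywhere.

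**Figure D1:**
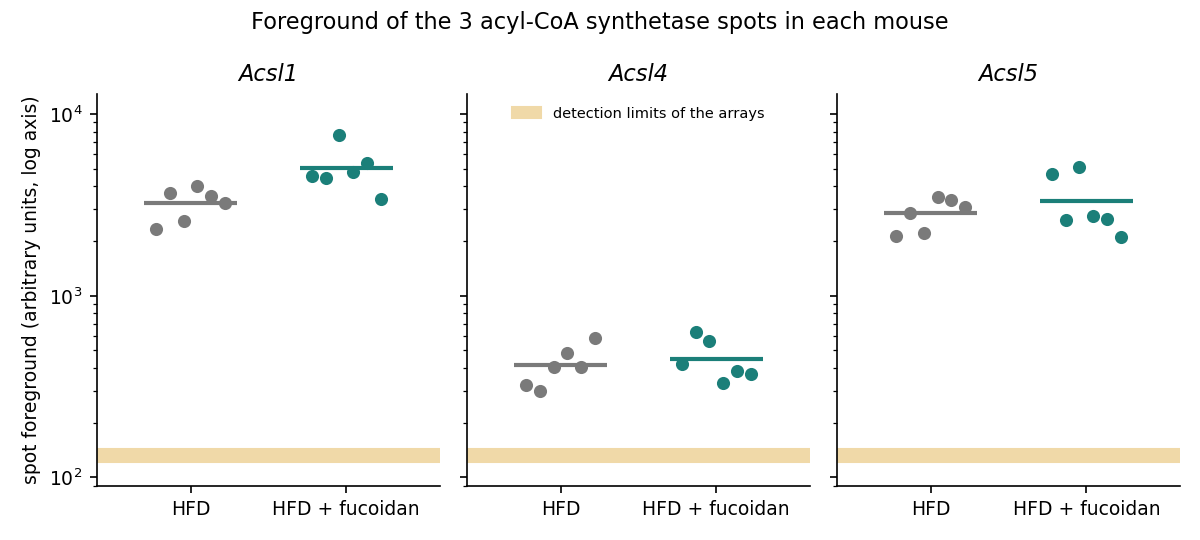
Foreground of the Acsl1, Acsl4 and Acsl5 spots (arbitrary units, log axis) in each mouse of the HFD and fucoidan groups, with replicates 1 to 6 from left to right, the group mean as a line and the range of the arrays' detection limits as a band. All 36 points lie above the band, and the fucoidan points of Acsl1 lie mostly above its HFD points.

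The deposited spot table gives each spot's foreground, its local background and a listed difference of both. For the 3 isoforms the listed difference equalled foreground minus background within 0.5 in 36 of 36 cells. Over all gene spots it did so in 3825 of 4247 cells, and the cells that did not agree, or held a foreground over the 16-bit maximum of 65535, belonged to 41 gene spots, called failed spots below. The isoform spots sit beside each other, in columns 8, 9 and 10 of row 2 of the first spot set, and their mean local backgrounds lay between 109.7 and 113.8 units over the 2 diets.

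Acsl1 was higher in the livers of fucoidan-fed mice. Its foreground minus background ran from 2235 through a median of 3279 to 3912 units in the HFD group, and from 3310 through 4570.5 to 7530 in the fucoidan group. The highest value was in fucoidan replicate 3, the array with the highest median gene foreground (232), and the lowest of the fucoidan group was in replicate 6. All 6 fucoidan values lay above the HFD mean and 5 of 6 above the highest HFD value, so the groups overlapped by 1 mouse on that side. On the other side, 3 of 6 HFD values lay below the lowest fucoidan value. The means were 3120.5 ± 648 and 4935 ± 1426 (SD, 6 mice per diet), a ratio of 1.58 (two-sided exact permutation p = 0.00866). The smallest p this test can give with 6 against 6 is 0.00216.

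After normalisation (normexp background correction, then quantile normalisation over all gene spots), Acsl1 averaged 11.68 ± 0.19 log2 units on HFD and 12.37 ± 0.33 with fucoidan (SD, 6 mice per diet). It rose by 0.69 (SE 0.15, 95% interval 0.37 to 1.01), a 1.61-fold change, and passed the limma test over 181 genes (Benjamini-Hochberg adjusted p = 0.0122). An exact permutation test of each gene on the same values did not pass for Acsl1 (adjusted p = 0.0557). Of the genes tested 8.29% were called in either direction and 3.87% as higher. On that scale too 5 of 6 fucoidan mice exceeded every HFD mouse, and fucoidan replicate 6, at 11.89, lay just below HFD replicate 2, at 11.95. Diet groups that did not overlap at all were found for 6.08% of genes, and for 0.0% without the failed spots described above; Acsl1 was not one of them. The mRNA of a bulk liver does not separate fewer cells of a type from less RNA in each cell, and this holds for every isoform.

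The size of the Acsl1 difference depended on which other spots entered the normalisation. With the 41 failed spots left out beforehand, it was 0.42 (SE 0.13, 95% interval 0.14 to 0.70), or 1.34-fold, and it no longer passed (limma adjusted p = 0.277). Of the 147 genes then tested 0.0% passed, and 15 (10.2%) had an unadjusted p under 0.05. Normalised without them, 6 of 6 fucoidan mice still lay above the HFD mean of Acsl1, and 3 of 6 above its highest value. The other bright genes moved with it. Among 26 other genes on passed spots with a mean above 11 log2 units, a limit chosen after the values were seen, 25 were higher with fucoidan (median 0.19) with all spots and 10 (median −0.03) without the failed spots, and 2 of them exceeded Acsl1 in each. Among the 118 dimmer genes on passed spots, 71 and 65 were higher, with medians of 0.04 and 0.02, and none exceeded Acsl1. Scaling each array to its 8 housekeeping genes gave Acsl1 0.41 (limma adjusted p = 0.0964) and no normalisation gave 0.62 (0.0849).

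**Figure D2:**
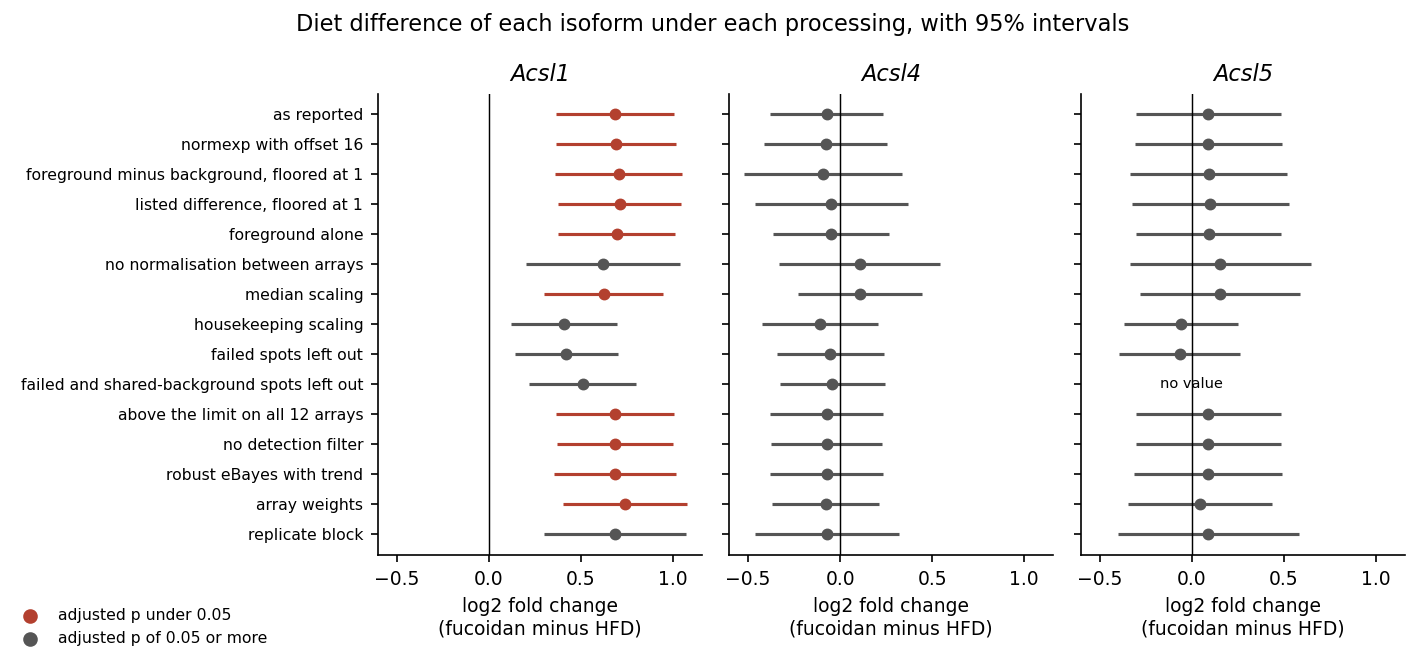
Log2 fold change (fucoidan minus HFD) of each isoform with its 95% interval, under the processing reported and 14 others that change 1 choice at a time. All Acsl1 intervals lie above 0, with the adjusted p at 0.05 or more in 5 of the 15 rows, and all Acsl4 and Acsl5 intervals include 0.

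Among the genes tested, Acsl1 ranked 8 by p and 6 by log2 fold change from the highest. Of the 15 genes called, 10 were among the 34 tested on failed spots and 5 among the 147 on passed spots, Acsl1 among the latter. Another of these 5 was the housekeeping gene Gapdh, at 0.41 (limma adjusted p = 0.0317), and at 0.07 without the failed spots. All 8 housekeeping genes were higher with fucoidan, with a median of 0.19. Without the failed spots their median was 0.07, and Actb (−0.19), Eef1a1 (−0.03) and Rplp0 (−0.04) were lower. Among the 147 genes on passed spots Acsl1 ranked 3 by log2 fold change. Both extremes of the ordering were held by failed spots.

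**Figure D3:**
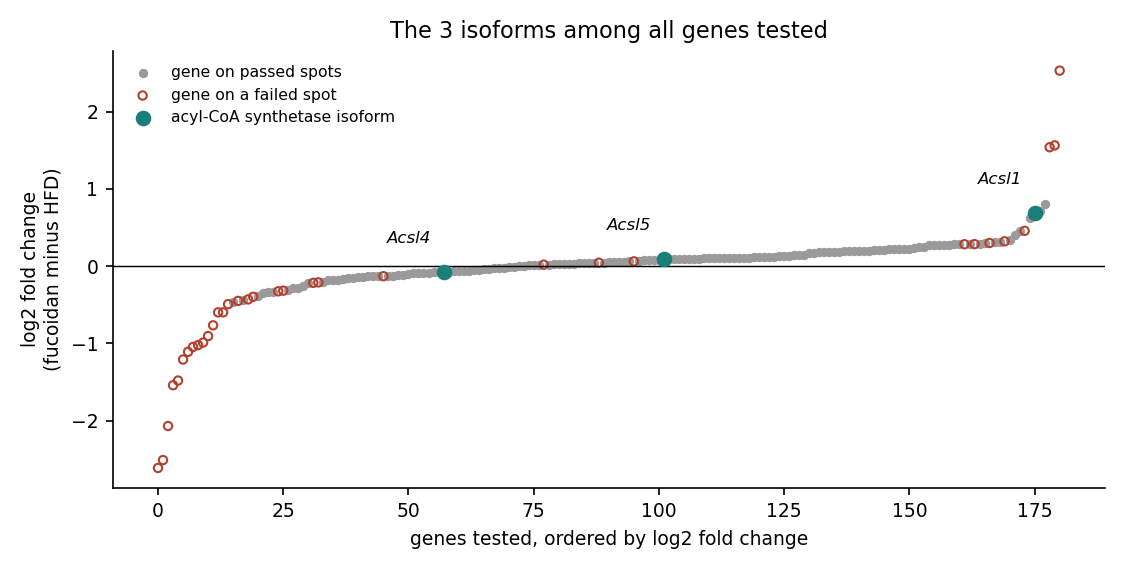
Log2 fold change (fucoidan minus HFD) of the 181 genes tested, in ascending order, with genes on failed spots as open circles and the 3 isoforms as large filled points. Acsl1 lies near the right end among genes on passed spots, at 0.69, and Acsl4 and Acsl5 lie near 0, at −0.07 and 0.09.

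Acsl4 showed no detectable diet difference. Its foreground minus background was 180 at the lowest, 299 at the median and 467 at the highest in the HFD group, and 233, 289.5 and 522 in the fucoidan group. The ranges overlapped in all but a few mice, and 3 of 6 fucoidan values lay above the HFD mean. The means were 303 ± 105 and 340 ± 115 units (SD, 6 mice per diet), a ratio of 1.12 (two-sided exact permutation p = 0.580). Normalised levels were 8.74 ± 0.28 and 8.67 ± 0.22 log2 units (SD, 6 mice per diet), a difference of −0.07 (SE 0.14, limma adjusted p = 0.780). Its 95% interval, −0.38 to 0.23, leaves room for a change to 0.768-fold or to 1.18-fold. With no normalisation or with median scaling the difference was 0.11, so its sign was not settled.

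Acsl5 did not pass either, and it varied more between the fucoidan mice than between the HFD mice. Its foreground minus background ran from 2033 through 2855.5 to 3374 units in the HFD group and from 1988 through 2580 to 4968 in the fucoidan group. Fucoidan replicates 1 and 3, at 4555 and 4968, stood above every HFD mouse, while the other 4 fucoidan mice lay between 1988 and 2645, below the HFD mean. The means were 2748 ± 574 and 3197 ± 1239 (SD, 6 mice per diet), a ratio of 1.16 (two-sided exact permutation p = 0.442). The normalised levels, 11.46 ± 0.18 and 11.55 ± 0.44 log2 units (SD, 6 mice per diet), differed by 0.09 (SE 0.18, 95% interval −0.30 to 0.49, limma adjusted p = 0.788). Without the failed spots the difference was −0.06 (limma adjusted p = 0.863), and without fucoidan replicate 1 it was −0.05, so its direction rested on the choice of spots and on 1 mouse.

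Whether the isoforms changed unequally was tested on the log2 ratio of 2 spots within each array, which cancels the brightness of the array. 3 pairs were compared with exact two-sided permutation tests and p-values adjusted over the 3. Acsl1 over Acsl5 was 0.06 to 0.36 in the 6 HFD mice and 0.59 to 1.04 in 5 fucoidan mice, with fucoidan replicate 1 at −0.03, below every HFD mouse. The mean ratio was 0.18 ± 0.11 on HFD and 0.64 ± 0.36 with fucoidan (SD, 6 mice per diet). The difference of 0.47 (SE 0.15, 95% permutation interval 0.13 to 0.75), or 1.38-fold, had an exact permutation p of 0.0195 and an adjusted p of 0.0584. It passed without fucoidan replicate 1 (0.60, exact permutation, adjusted p = 0.00649) and without HFD replicate 2 (0.50, adjusted p = 0.0357), and the adjusted p was 0.117 at 0.39 without fucoidan replicate 5, so 1 mouse decides the call. It did pass on quantile normalised values, at 0.60 (exact permutation, adjusted p = 0.0390). Those values include the failed spots. Without them the separate differences were 0.42 for Acsl1 and −0.06 for Acsl5, and their ratio was not tested. With the replicate number as a block the ratio did not pass.

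Acsl1 over Acsl4 averaged 2.97 ± 0.39 on HFD and 3.49 ± 0.42 with fucoidan (SD, 6 mice per diet). The difference of 0.52 (SE 0.24, 95% permutation interval −0.02 to 1.04) did not pass (exact permutation p = 0.0606, adjusted p = 0.0909). It passed without HFD replicate 2, at 0.64 (exact permutation, adjusted p = 0.0357), and on quantile normalised values, at 0.76 (adjusted p = 0.0390). The quantile normalised values include the failed spots. Without them the separate differences were 0.42 for Acsl1 and −0.05 for Acsl4, and their ratio was not tested. With all arrays, the Acsl1 over Acsl4 ratio of 5 of 6 fucoidan mice lay above its HFD mean, and that of 3 above its highest HFD value. Acsl5 over Acsl4 differed by 0.05 (SE 0.25, 95% permutation interval −0.51 to 0.60, exact permutation p = 0.853), and the interval includes changes of either sign. With all 12 arrays and before normalisation between them, an unequal change of Acsl1 and a second isoform was not shown at the threshold of 0.05 for either partner.

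**Figure D4:**
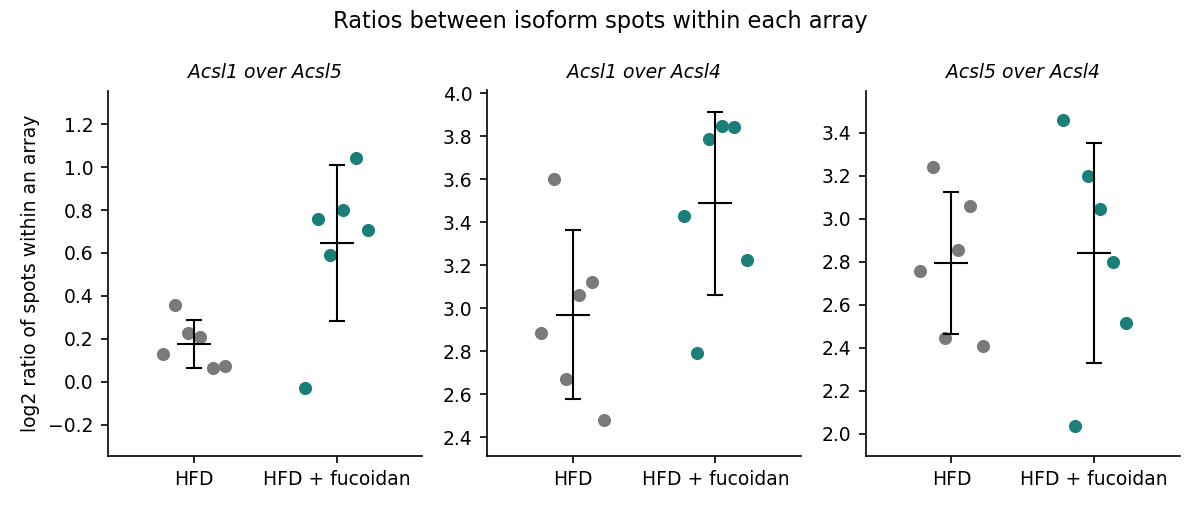
Log2 ratio of 2 isoform spots within each array for the 3 pairs, by diet, with replicates 1 to 6 from left to right in each group and the mean and SD in black; the 3 axes have the same span at different levels. In the Acsl1 over Acsl5 panel 5 fucoidan mice lie above all HFD mice and 1 lies below them.

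As spots, Acsl1 was brighter than Acsl4 on 12 of 12 arrays, with foreground minus background ratios of 6.72 to 20.1, and Acsl5 was brighter than Acsl4 on 12 of 12, with ratios of 4.81 to 15.2. Acsl1 was brighter than Acsl5 on 11 of 12, 6 HFD and 5 fucoidan, with ratios of 0.979 to 2.11. In HFD mice the median Acsl1 to Acsl5 ratio was 1.13, so these neighbours in the order were close, and in fucoidan mice it was 1.69. Brightness of a cDNA spot also depends on its probe, and the files used here give no probe length, so this is an order of spots and not of transcripts.

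The Acsl5 spot had a counterpart elsewhere on the array. The spot of Klf2, a transcription factor gene, lies in column 9 of row 1 of the second set, and its local background was identical to that of Acsl5 on 12 of 12 arrays. Only 14 of the 62481 pairs of gene spots had such a match, and the most arrays any other pair shared was 8. The Klf2 foreground was also identical to that of Acsl5 on 6 arrays, 4 HFD and 2 fucoidan, and on the other 6 it exceeded it by exactly 100, 100, 120000, 5000, 5000 and 4000 units. The Klf2 spot failed on 9 arrays, while Acsl5 failed on none. The log2 fold change of Klf2 was 1.56 (SE 0.61, limma adjusted p = 0.140), beside 0.09 for Acsl5. How these entries arose was not tested, and leaving out every spot that shares its background removes Acsl5 from the fit.

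**Figure D5:**
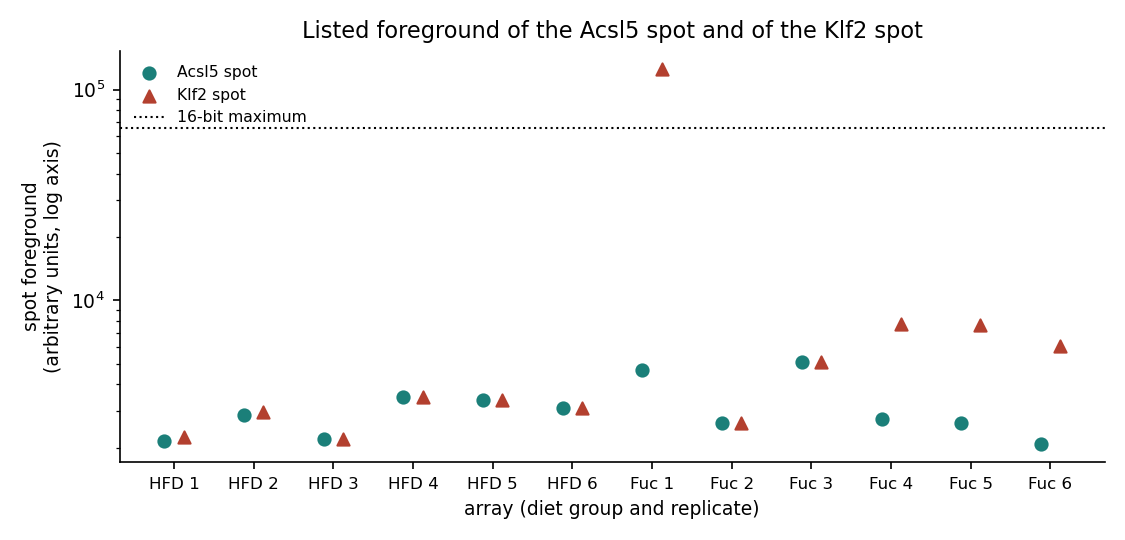
Listed foreground of the Acsl5 spot (circles) and of the Klf2 spot (triangles) on the 12 arrays (arbitrary units, log axis), with the 16-bit maximum as a dotted line. The symbols lie level on 6 arrays, Klf2 is far higher in fucoidan replicates 4, 5 and 6, and in fucoidan replicate 1 it lies above the maximum, at 124664.

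Of 29 tested genes in the lists of fatty acid handling, the isoforms left out, 2 (6.9%) were called, beside 8.29% of all genes tested, so their share lay near that of the array. Of 7 tested genes of fatty acid uptake and binding, 0 were called higher and 1 lower (4.42% of all genes were called lower), with a median log2 fold change of 0.03 beside 0.05 over all 181 genes. The 1 called is Ffar1, a fatty acid receptor, at −1.11 (limma adjusted p = 4.52e-05), on a failed spot. The 3 largest on passed spots were Fabp2, an intestinal-type fatty acid binding protein, at 0.28, Fabp7 at 0.14 and Cd36, a fatty acid transporter, at −0.07. Acss2, the acetyl-CoA synthetase and the 1 other synthetase listed, was at −0.21 on a failed spot.

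Downstream of the synthetases, in oxidation, 0 of 7 tested genes were called, beside 8.29% of all genes, and the median was 0.09, or 0.05 without the failed spots. The 3 largest on passed spots were Hsd17b10, a mitochondrial hydroxyacyl-CoA dehydrogenase, at 0.31 (0.15 without the failed spots), Ehhadh, the peroxisomal bifunctional enzyme, at 0.22, and Acox2, a peroxisomal acyl-CoA oxidase of branched chains, at −0.13. Cpt1a, which passes acyl groups to carnitine for entry into mitochondria, stood at 0.10 (SE 0.09). By unadjusted p, 22.1% of all genes tested were under 0.05.

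In triglyceride turnover 1 of 2 tested genes rose, beside 3.87% of all genes called higher. Gk, glycerol kinase, which supplies glycerol phosphate, was 0.31 higher (SE 0.09, limma adjusted p = 0.0454), and 0.30 without the failed spots, where it did not pass (limma adjusted p = 0.207). Pnpla2, the triglyceride lipase ATGL, was at −0.29 (SE 0.30). Of 4 tested genes of fatty acid synthesis 0 were called, beside 8.29% of all genes. Me1, malic enzyme, was at 0.28, Fasn, fatty acid synthase, at −0.12, and Acaca, acetyl-CoA carboxylase, at −0.06, all on passed spots. Acly, ATP citrate lyase, was at −1.05 on a failed spot.

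Of 7 tested regulators of fatty acid metabolism 0 were called, beside 8.29% of all genes. Their median was 0.03, but −0.05 over the 4 on passed spots and −0.07 with the failed spots left out of the normalisation, so its sign was not settled. The 3 largest on passed spots were Foxo1, an insulin-restrained transcription factor, at −0.17, and the retinoid X receptors Rxra at −0.13 and Rxrb at 0.13, which pair with PPARs. Ppara, the receptor for which Acsl1 is a known target in rodents, was at 0.28 (SE 0.36) on a failed spot, and Pparg was above the limit on 5 arrays and not tested. Only 1 of these pathway genes other than Gk was called, and it is Ffar1.

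Markers of hepatocytes and of other cell types were compared with the detection limit, which 158 of all 330 genes passed on every array. Of 9 hepatocyte markers, 8 were above the limit on every array, and 5 of the 9 were on passed spots. Cyp7a1 was called lower with fucoidan, at −2.51 (limma adjusted p = 0.00162), on a failed spot. The 5 on passed spots were all higher, with a median of 0.25. Without the failed spots the median was 0.12, and Apoa2 and Apoc3 were lower. The summed foreground of the 9 markers was 112444 to 215773 units in HFD and 117116 to 161080 in fucoidan mice. Of 10 adipocyte markers, 7 were above the limit on no array, among them Adipoq, Lep and Plin1, while Fabp4 and Cfd were above it on all 12 and Pparg on 5. Cfd was called lower with fucoidan, at −0.60 (limma adjusted p = 0.00603), on a failed spot. Fabp4, the other tested marker of that list, was on a passed spot at 0.03 (limma adjusted p = 0.936). The summed foreground of the adipocyte list was 4452 to 5968 in the HFD and 3610 to 5022 in the fucoidan group. Of 3 macrophage and leukocyte markers, Tnf and Il6 were above the limit on no array and Ccl2, on a failed spot, on all 12, at −0.77 (limma adjusted p = 0.518). The summed foreground of that list was 922 to 21151 in HFD and 889 to 1573 in fucoidan mice. Of 5 pancreas and gut markers, 4 were above the limit on no array and Fabp2 was above it on all 12. Of 3 muscle markers, 2 were above it on no array and 0 on all. Of 2 stellate and endothelial markers, 0 were above it on all, but Nos3, on a failed spot, and Kdr were each above it on 7 arrays. The summed foregrounds include the failed spots of each list. The part of these marker lists in the isoform values was not tested. Median gene foreground was 168 to 225 in the HFD and 176 to 232 in the fucoidan arrays.

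Within the diets, the genes most like each isoform were sought. By the deviation of each array from its group mean (12 arrays, 146 candidate genes on passed spots, sharing array and normalisation), Acsl1 was most like Acat3 (Pearson r = 0.88), Pklr, the liver pyruvate kinase (0.82), Mapk3 (0.78), Dcn (0.69) and Prkaca (0.59). Acsl4 was most like Rxra (0.77), Il4ra (0.77), Hmox1 (0.76), Rxrb (0.76) and Eif4ebp1 (0.71). Acsl5 was most like Acads (0.76) and Acadm (0.71), 2 acyl-CoA dehydrogenases, then Cd36 (0.70) and Agt (0.69). These are the highest of 146 values per isoform, whose medians were 0.08 for Acsl1, −0.05 for Acsl4 and 0.07 for Acsl5. High values follow in part from that choice, and chance was not tested. With the failed spots left out of the normalisation, Dcn fell to rank 8, Rxrb to 10, Acads to 6 and Acadm to 9. Without the 2 arrays farthest from the median, the Acsl5 values ran from 0.15 to 0.60, those of Acsl4 from 0.52 to 0.77 and those of Acsl1 from 0.60 to 0.79. Agt, like Acsl5, lies on a spot whose local background another spot repeats on all 12 arrays. Over all 12 arrays, with the diet difference kept in, Acat3 against Acsl1 was −0.22. The isoforms themselves gave −0.40 for Acsl1 and Acsl4, 0.21 for Acsl1 and Acsl5, and 0.03 for Acsl5 and Acsl4. With the failed spots left out these were −0.54, 0.05 and −0.03, so the last changed sign.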

How the data were processed

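Liver RNA of each mouse (10 µg) was labelled and hybridised, per the labels' protocols, and a GenePix 4000B instrument read the slide at 532 nm with GenePix Pro 6.0.1.27, per the file headers. The deposited spot table holds linear intensity (foreground, background, listed difference), unscaled between arrays. Later steps are not given in the sources used here. A second deposited table holds intensity of unstated normalisation; its 354 rows carry no gene names and 0 matched an isoform spot within 1 on all arrays, so it was not used. Groups and replicate numbers come from the sample labels.

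Intensities were corrected with limma 3.58.1 in R 4.3.3 (normexp, offset 50), quantile normalised over gene spots, expressed as log2 and averaged per gene. Genes above the detection limit on at least 6 of 12 arrays (181) were tested with lmFit and eBayes, Benjamini-Hochberg adjusted, threshold 0.05. Isoform ratios used exact permutation tests before normalisation between arrays (Python 3.11.15, numpy 2.4.6). The offset draws differences of dim genes such as Acsl4 towards 0. Named genes are the 3 isoforms, the called and the 3 largest passed members of each list, and 5 like genes per isoform, of which 1 is not reported here; Klf2, Acss2, Acly, Ppara, Pparg and the marker genes were named after their values were seen or as a list's remaining members. The members and lists were chosen with earlier results of these data known. Pipelines were tested on simulated data. The labels do not say more of how the mice were housed or paired, and the number of arrays limits the precision.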

Additional observations from a re-analysis of the deposited data

How the results depend on the processing

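Acsl1 stayed higher with fucoidan under all 15 other settings that kept every array (0.41 to 0.74), and 6 of them ended its call. These were no normalisation (0.62, adjusted p = 0.0849), housekeeping scaling (0.41, 0.0964), failed spots left out (0.42, 0.277), failed and shared-background spots left out (0.51, 0.138), the exact permutation test (0.69, adjusted p = 0.0557) and the replicate block (0.69, limma adjusted p = 0.0529). With 2 choices changed together, chosen after seeing the data, Acsl1 without failed spots was 0.41 with housekeeping scaling, 0.62 with no normalisation and 0.42 in the permutation test, and passed in none. Leaving out each array gave 0.61 to 0.79, past the threshold in 12 of 12; with the failed spots left out too it gave 0.36 to 0.50, past it in 0 of 12.

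Acsl4 and Acsl5 passed under no alternative. Acsl4 turned positive with no normalisation (0.11, and 0.12 without failed spots) and median scaling (0.11), and ran from −0.17 to 0.0082 with 1 array left out. Acsl5 turned negative with housekeeping scaling (−0.058, and −0.058 without failed spots), with failed spots left out (−0.064, in the permutation test as well), and ran from −0.19 to 0.20 with 1 array left out. The count of 15 called genes became 25 with the listed difference, 9 with the replicate block, and 0 with failed spots left out (limma, 15 at an unadjusted p under 0.05), with shared-background spots also left out, and with failed spots left out under housekeeping scaling, no normalisation or the permutation test. It ran from 0 to 17 with 1 array left out, and the lowest with all spots was 9, without HFD replicate 3 or 5. Housekeeping scaling moved the median of all genes from 0.05 to −0.12.

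The Acsl1 over Acsl4 difference passed on quantile normalised values (0.76) and ran from 0.42 to 0.66 with 1 array left out, and Acsl1 over Acsl5 passed on the same values (0.60) and ran from 0.39 to 0.60. Those normalised values include the failed spots. Neither difference passed with the replicate block. Acsl5 over Acsl4 was −0.011 with either plain difference and ran from −0.074 to 0.21. The labels do not say whether the replicate numbers pair mice. Same-numbered arrays correlated at −0.24 to 0.18 and 1 of 6 matched its own number best, but weak correlation cannot exclude a pairing. The replicate block changed no isoform call other than that of Acsl1. The value table alternative was not run, since its rows could not be named, and Acsl5 has no value once shared-background spots are left out. The cause of these changes was not tested.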
